A study of Mus musculus with 2 samples.

Results

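Immature neutrophils, defined by transcripts of secondary granule genes, were examined in the omentum, the fatty apron of the peritoneum that carries small lymphoid clusters called milky spots. They were chosen from the measured values: a cell with 200-7,500 detected genes was a member when *Ltf*, *Camp*, and *Ngp* summed to 50 or more unique molecular identifiers (UMIs, each a tag of 1 captured transcript) per 10,000, when the primary granule genes *Elane*, *Mpo*, and *Prtn3* summed to less than 20, and when its value of *Jchain* was below the limit set for plasma cells. This rule held for 658 of 14,414 cells, 235 of 8,680 in the WT library and 423 of 5,734 in the *Postn*-DTR library. Both groups received diphtheria toxin (DT) and were taken at 5 d after the injection. They differed in genotype, which cannot be told apart from the library. In *Postn*-DTR mice, a diphtheria toxin receptor had been inserted into the *Postn* gene, and DT therefore ablates *Postn*-expressing cells, among them a subset of the fibroblastic reticular cells of milky spots but also *Postn*-expressing cells of other tissues. The study states that the mice were heterozygous for this allele, that it was made in C57BL/6 zygotes, and that omenta of 3 mice per group were pooled, whereas the age of the mice was not given in the sources used here. Each group was therefore 1 library without replicates, no test between the genotypes could be made, and the intervals below cover counting error within the libraries alone.

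Neutrophils make their granules in a fixed order. Promyelocytes fill the primary (azurophil) granules with serine proteases and myeloperoxidase, myelocytes and metamyelocytes fill the secondary (specific) granules with lactoferrin (*Ltf*), cathelicidin (*Camp*), neutrophilic granule protein (*Ngp*), and lipocalin 2 (*Lcn2*), and band cells fill the tertiary (gelatinase) granules with matrix metalloproteinases. The transcription factor C/EBPε drives the secondary granule program, the genes of which are silenced in the circulating cell, and these immature stages reside mainly in the bone marrow.

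*Ltf*, *Camp*, and *Ngp*, the genes of the rule, lie on the same chromosome, 9 in the mouse, and *Lcn2* lies on chromosome 2. The 250 bases that precede the transcription start of each are shown because these genes define the cells and were high in the same cells. They were taken from RefSeq (GRCm38.p6) and run 5′ to 3′ on the strand of the gene. They correspond to chr9:111019042-111019291 (plus strand) for *Ltf*, chr9:109849457-109849706 (minus strand) for *Camp*, chr9:110419558-110419807 (plus strand) for *Ngp*, and chr2:32387740-32387989 (minus strand) for *Lcn2*. Capitals mark matches, on either strand, to TTNNGNAA, the letters of a C/EBP-type site.
Ltf: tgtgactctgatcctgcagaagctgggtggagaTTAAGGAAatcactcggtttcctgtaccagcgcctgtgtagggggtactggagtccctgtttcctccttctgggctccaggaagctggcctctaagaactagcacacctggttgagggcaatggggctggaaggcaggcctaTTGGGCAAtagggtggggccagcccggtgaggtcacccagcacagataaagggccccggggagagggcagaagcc
Camp: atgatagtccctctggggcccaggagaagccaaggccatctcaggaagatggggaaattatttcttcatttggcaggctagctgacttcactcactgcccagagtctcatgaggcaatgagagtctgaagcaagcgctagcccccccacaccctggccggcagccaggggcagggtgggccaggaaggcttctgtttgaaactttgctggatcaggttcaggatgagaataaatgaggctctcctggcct
Ngp: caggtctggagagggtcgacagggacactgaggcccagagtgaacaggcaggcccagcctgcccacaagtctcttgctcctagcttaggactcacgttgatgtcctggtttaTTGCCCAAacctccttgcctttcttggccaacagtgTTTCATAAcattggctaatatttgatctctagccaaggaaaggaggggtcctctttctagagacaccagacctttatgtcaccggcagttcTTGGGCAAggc
Lcn2: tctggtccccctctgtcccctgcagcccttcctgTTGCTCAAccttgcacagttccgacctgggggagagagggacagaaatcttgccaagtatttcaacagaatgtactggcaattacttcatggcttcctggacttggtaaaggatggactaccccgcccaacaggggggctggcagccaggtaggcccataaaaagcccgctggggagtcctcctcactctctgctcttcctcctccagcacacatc
*Ltf* held 2 matches at 217 and 75 bases before the start, *Ngp* held 3 at 138, 102, and 11 bases, *Lcn2* held 1 at 216 bases, and *Camp* held 0. The letters were also found in 12,104 of 32,851 windows of the same length before mouse genes (36.8%), so a match was common. Identity between pairs of these windows was 45.5-51.3%.

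The libraries held 8,686 (WT) and 5,736 (*Postn*-DTR) barcodes with 80,640,921 and 81,120,827 UMIs, respectively. Depth differed in opposite directions in all cells and in the members. All cells had a median of 5,618 UMIs in WT and 8,456.5 in *Postn*-DTR, whereas immature neutrophils had 11,523 and 6,401 UMIs and 2,086 and 1,642 detected genes. The mitochondrial share of UMIs in the members was similar, with medians of 0.628% and 0.660%. 65 barcodes occurred in both libraries, and 0 of them belonged to a member in each. 1 WT member and 9 *Postn*-DTR members shared a barcode with any cell of the other library.

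Immature neutrophils made up 2.71% of WT cells (95% exact Clopper-Pearson interval, 2.38-3.07%) and 7.38% of *Postn*-DTR cells (6.71-8.08%), a ratio of 2.72 (Katz interval, 2.33-3.18). Plasma cells, defined by *Jchain*, were left in these denominators. Without them the shares were 2.91% and 11.5%, a ratio of 3.95 (3.39-4.61). Within the neutrophil lineage the order was the opposite. The lineage comprised 387 WT and 1,046 *Postn*-DTR cells, and the immature cells were 60.7% of it in WT (55.7-65.6%) and 40.4% in *Postn*-DTR (37.4-43.5%), a ratio of 0.666 (0.597-0.742). The largest ratio of the 3 stages belonged to mature neutrophils, which were defined by *S100a8*, *S100a9*, and a transcript of *Csf3r*, *Cxcr2*, or *Retnlg* and lay below the granule limit. Mature neutrophils numbered 54 and 428 cells, 0.622% and 7.46% of all cells, a ratio of 12 (9.06-15.9). Granulocyte precursors with primary granule transcripts numbered 98 and 195 cells, 1.13% and 3.40%, a ratio of 3.01. These are shares of the cells recovered, and more neutrophils in a tissue cannot be told apart from fewer cells of other kinds.

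**Figure D1:**
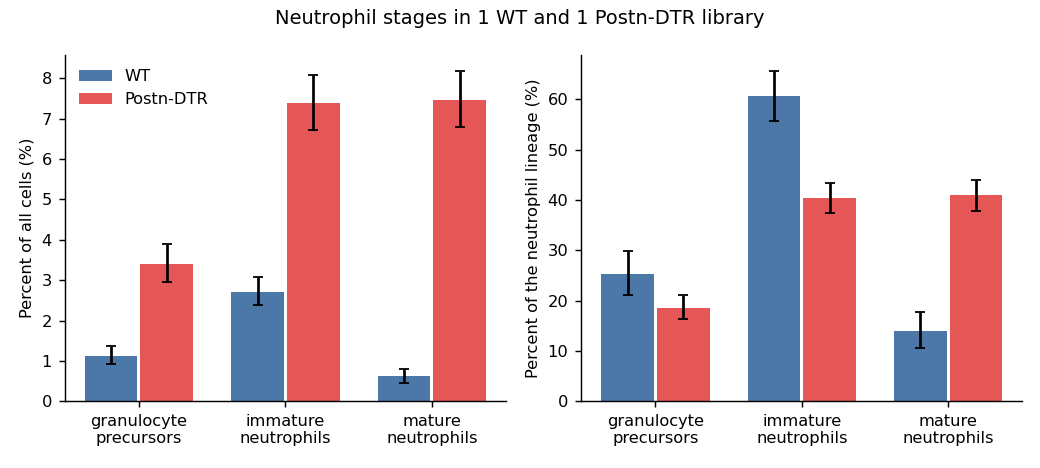
The 3 neutrophil stages in the WT and *Postn*-DTR libraries, with bars as the percent of all cells (left) and of the neutrophil lineage (right) and lines as 95% intervals that cover counting error. Immature neutrophils were 2.71% and 7.38% of all cells but 60.7% and 40.4% of the lineage.

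The rule set the granule sum at 50, and cells lay on both sides of this limit, more of them in *Postn*-DTR than in WT. A sum of 25-50 was found in 9 WT and 34 *Postn*-DTR cells, and a sum of 50-100 in 12 and 48 cells. In *Postn*-DTR the limit thus did not fall in a gap. The members with the lowest sum had 50.8 (WT) and 50.5 (*Postn*-DTR) UMIs per 10,000, and the highest sums just below the limit were 45.9 and 48.9. A sum of 40-50 was found in 1 and 14 cells, and a sum of 50-60 in 4 and 10 cells. The limit on primary granule genes removed 23 and 59 cells, and the limit on *Jchain* removed 4 and 5. Within the members the sum had a median of 962 in WT and 640 in *Postn*-DTR, and the lower 10% of cells lay below 172 and 96.4, respectively. When the cells were split by this sum, 162 WT cells (68.9%; 62.6-74.8%) and 222 *Postn*-DTR cells (52.5%; 47.6-57.3%) had 600 or more. 43 (18.3%) and 101 (23.9%) had 200-600, and 30 (12.8%; 8.78-17.7%) and 100 (23.6%; 19.7-28.0%) had 50-200. The *Postn*-DTR cells thus lay at lower granule sums than the WT cells. The rule used these values, and the comparison is given as a description.

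**Figure D2:**
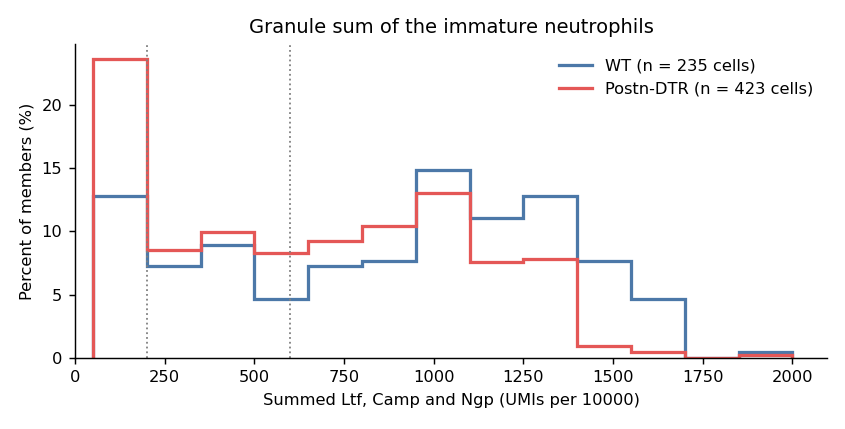
Summed level of *Ltf*, *Camp*, and *Ngp* in each immature neutrophil. The x axis gives UMIs per 10,000 in bins of equal width, the y axis the percent of members of each library, and dotted lines the sums of 200 and 600. The median was 962 in WT and 640 in *Postn*-DTR, and the first bin held 12.8% of WT and 23.6% of *Postn*-DTR members.

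Lactoferrin, which binds iron, had the largest difference among the marker genes. Mean *Ltf* was 128 UMIs per 10,000 in WT cells and 75.7 in *Postn*-DTR cells (log2 ratio of *Postn*-DTR over WT, -0.76). Its median over cells was 134 and 76.1, and it was at 0 in 8 of 235 and 47 of 423 cells, and the cells of the libraries overlapped over most of the range. *Camp*, the antimicrobial peptide precursor, had mean levels of 331 and 277 and medians of 344 and 264. *Ngp*, a protein related to the cystatins and cathelicidins, had mean levels of 407 and 296 and medians of 427 and 267. *Lcn2*, which captures bacterial siderophores and was not part of the rule, had mean levels of 201 and 157 and medians of 185 and 154. These 4 genes together took 10.7% ± 5.34 (SD over 235 cells) of a WT cell's UMIs and 8.06% ± 4.81 (SD over 423 cells) of a *Postn*-DTR cell's. *S100a8* and *S100a9*, the subunits of calprotectin, took 26.0% ± 6.93 and 21.8% ± 5.51. UMI levels count 1 tag per transcript and were not divided by length.

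The label of the cells was compared with markers of the neighboring stages. Collagenase *Mmp8* and gelatinase *Mmp9*, enzymes of the later granules, had levels of 14.2 and 15.5 in WT cells and of 13.6 and 16.7 in *Postn*-DTR cells, in UMIs per 10,000. *Mmp8* was at 0 in 86 of 235 and 141 of 423 cells. *Retnlg*, which encodes resistin-like gamma and is high in mature neutrophils, ranged from 0 to 980 in WT cells and from 0 to 1,326 in *Postn*-DTR cells, with medians of 50.7 and 91.2. Primary granule transcripts were low by the rule, and 65 and 100 members had at least 1 UMI of *Elane*, *Mpo*, or *Prtn3*. After thinning to 1,000 UMIs, *Prtn3* was detected in 4.70% of WT and 2.40% of *Postn*-DTR members and in 0.59% and 3.73% of cells outside the neutrophil lineage. The share of members was thus above that of the other cells in WT and below it in *Postn*-DTR. The source of these UMIs was not tested. The members therefore ranged from cells without to cells with collagenase and gelatinase transcripts.

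RNA released from broken cells can place UMIs in any droplet, and the marker genes were therefore also read outside the lineage. After each cell was thinned to 1,000 UMIs, *Ltf* was detected in 92.3% of WT and 83.5% of *Postn*-DTR members and in 0.21% and 0.35% of cells outside the neutrophil lineage. *Camp* was detected in 96.6% and 90.4% of members and in 0.56% and 1.11% of other cells, and *Lcn2* in 99.1% and 99.8% of members and in 0.43% and 2.77% of other cells. *S100a8* outside the lineage was detected in 0.89% of WT and 4.38% of *Postn*-DTR cells.

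Compared with mature neutrophils of the same library, immature cells were marked by granule proteins. Of the 15 secondary granule genes, 12 were at least 2-fold higher in the immature cells of both libraries, against 337 of all 3,508 genes compared. The median log2 ratio of these 15 genes was 2.67 in WT and 2.61 in *Postn*-DTR, against -0.07 and 0.11 over all genes. Because the rule used granule genes to separate these stages, this is a description. *Ltf* was at 6.58 and 3.92 UMIs per 10,000 in precursors of the WT and *Postn*-DTR libraries and at 0.45 and 0.13 in mature neutrophils. *Lcn2* was less restricted, with 19.7 and 31.7 in precursors and 35.5 and 45.9 in mature neutrophils. *Fcnb*, which encodes the lectin ficolin B, was higher in immature cells by a log2 ratio of 5.63 in WT and 5.95 in *Postn*-DTR. *Orm1*, an acute-phase glycoprotein, was higher by 5.52 and 4.63, and *Serpinb1a*, an inhibitor of neutrophil serine proteases, by 4.12 and 4.49. Conversely, 14 of 18 mature neutrophil genes were at least 2-fold lower in the immature cells of both libraries, against 252 of all 3,508 genes compared. *Ifitm1*, an interferon-induced membrane protein, had log2 ratios of -4.61 and -4.37. The cytokine gene *Il1b* had -4.79 and -3.83, and *Csf3r*, the receptor for granulocyte colony-stimulating factor, had -3.24 and -3.16. The mature gate required a UMI of *Csf3r*, *Cxcr2*, or *Retnlg*, so the lower levels in immature cells are a description as well.

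Compared with granulocyte precursors, immature cells had fewer transcripts of primary granule, ribosomal, and cell cycle genes. All 8 primary granule genes, 3 of which set the gates, were at least 2-fold lower in both libraries (median log2 ratio, -7.06 in WT and -6.43 in *Postn*-DTR). The tertiary granule genes had medians of 5.14 and 4.08, with 7 of 8 at least 2-fold higher, against 475 of all 6,357 genes compared. Of 80 ribosomal protein genes, 78 were at least 2-fold lower (median, -2.36 and -2.08, against -0.84 and -0.65 over all genes). 13 of 20 cell cycle genes were at least 2-fold lower as well. Over all genes, 2,318 of 6,357 were at least 2-fold lower in both libraries, so lower levels were common in this comparison. Precursors were also deeper, with median UMIs of 40,010 and 28,004, and the part of depth in these ratios was not tested.

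**Figure D3:**
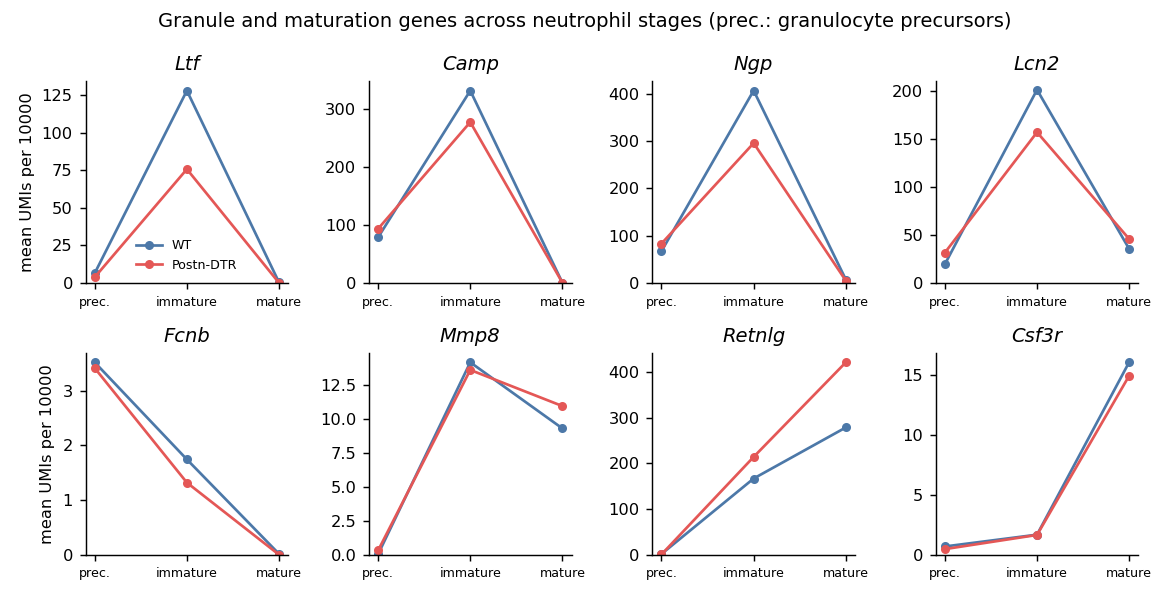
Mean level of granule and maturation genes in granulocyte precursors, immature neutrophils, and mature neutrophils of WT and *Postn*-DTR. Each panel is 1 gene, and its y axis gives UMIs per 10,000 from 0 on a scale of its own. *Ltf* and *Camp* were highest in the immature stage of both libraries (128 and 75.7 for *Ltf*), whereas *Retnlg* was at 167 and 214 in immature cells and higher, at 278 and 421, in mature cells. *Ltf*, *Camp*, and *Retnlg* were among the genes that set the gates.

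A cycling subset was present in both libraries and differed from the other members in primary and tertiary granule genes. Cells with 2 or more UMIs of the proliferation genes *Mki67*, *Top2a*, *Birc5*, *Cdk1*, *Ccnb2*, and *Ube2c* after thinning to 1,000 UMIs were 50 of 234 WT members (21.4%; 16.3-27.2%) and 91 of 417 *Postn*-DTR members (21.8%; 18.0-26.1%). The ratio was 1.02 (0.752-1.39), so a difference of this share was not detectable at this depth. Cycling cells were 44.9% and 44.2% of precursors and 1.89% and 0.485% of mature neutrophils. After thinning to 2,000 UMIs, 24.5% of WT and 29.2% of *Postn*-DTR members were cycling, a ratio of 1.19 (0.907-1.57). For the comparison of genes, cells were called cycling without thinning at 2 or more UMIs that also reached 2 or more UMIs per 10,000 over these genes, which gave 69 WT and 128 *Postn*-DTR members. As a list, the secondary granule genes lay near all genes in this comparison, although single granule genes were higher in the cycling cells. Of 15 secondary granule genes, 3 were at least 2-fold higher in both libraries and 1 lower, against 430 and 227 of 3,145 genes. The median log2 ratio of the 15 was 0.25 in WT and 0.34 in *Postn*-DTR, against 0.18 and 0.10 over all genes. Of 4 primary granule genes, 3 were at least 2-fold higher and 0 lower (medians, 3.61 and 2.38), within the maximum that the rule set for *Elane*, *Mpo*, and *Prtn3*. *Fcnb* was higher in cycling than in other members by a log2 ratio of 3.72 in WT and 4.09 in *Postn*-DTR. *Chil3*, a chitinase-like protein, was higher by 1.89 and 1.98, and *Camp* by 0.91 and 1.29. *Cebpe*, the factor of the secondary granule program, was higher by 1.66 and 1.66, and *Gfi1*, a repressor needed for granulocyte development, by 2.45 and 2.66. In contrast, the tertiary granule and mature genes were low in cycling cells. *Mmp8* had log2 ratios of -5.55 and -4.43, *Retnlg* of -6.05 and -4.72, and the chemokine receptor gene *Cxcr2* of -2.64 and -3.29. All 16 mature neutrophil genes that could be compared were at least 2-fold lower in the cycling cells of both libraries, against 227 of 3,145 genes overall. Cycling cells were deeper than the others, with median UMIs of 23,043 against 9,448.5 in WT and 16,035 against 5,139 in *Postn*-DTR, and the part of depth was not tested.

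To examine how the immature cells of the genotypes differed, mean levels were compared for 5,352 genes with 100 or more UMIs in the members. A log2 ratio of 1 or more was found for 72 genes (1.35% of those compared) and of -1 or less for 51 genes (0.953%). To each level 0.02 UMIs per 10,000 was added, which draws the ratio of a gene with few UMIs toward 0, and each cell counted equally. The median over all genes was 0.12. When granule, S100, ribosomal, and mitochondrial genes were left out of the totals, the median was -0.003, and 53 genes were higher and 67 lower. When the ratios were centered on their median, 54 were higher and 72 lower. The excess of higher over lower genes thus depended on the scaling, and ratios are best read against the median of 0.12.

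Granule genes differed by less than 2-fold between the genotypes, but the rule itself set a minimum for *Ltf*, *Camp*, and *Ngp* and a maximum for *Elane*, *Mpo*, and *Prtn3*. Of 15 secondary granule genes, 0 were 2-fold different and 12 had a log2 ratio below 0 (median, -0.26). *Lyz2*, the lysozyme of myeloid cells, had levels of 99.8 and 60.7 (-0.72), and *Cd177*, a surface protein held in secondary granules, at 17.9 and 13.7. 0 of 5 primary granule genes compared (median, -0.20) and 0 of 10 tertiary granule genes (median, 0.16) were 2-fold different. Of 7 S100 genes, *S100a10* was lower (-1.54), whereas *S100a6* was at 57.2 and 90.5 (0.66), and the median was -0.21. Of 11 adhesion and chemokine receptor genes, 0 were 2-fold different and 10 were below 0 (median, -0.20). Of 20 cell cycle genes, 0 were 2-fold different and 18 were above 0 (median, 0.26). At granule sums of 600 or more, 3 of these 20 were 2-fold higher and 0 lower, against 108 and 29 of 4,574 genes. Their median there was 0.69, against 0.18 over all genes. The lists of transcription factors, NADPH oxidase subunits, growth factor receptors, and glycolysis enzymes had medians that changed sign with the scaling, with 1 gene past 2-fold among them, *Irf8* (-1.33), a factor of the monocyte and dendritic cell lineages that was detected in 8 cells of each library. Heat shock genes had a median of -0.03, mitochondrial genes of -0.03, and ribosomal protein genes of 0.22, and 0 genes of these 3 lists were 2-fold different. The 8 neutrophil identity markers had a median of -0.17, with 0 past 2-fold. Of 10 interferon-stimulated genes that could be compared, *Bst2*, which tethers enveloped viruses, was lower (-1.45) and 0 were higher (median, 0.18). Of 15 inflammatory genes, 2 were higher (*Saa3*, 5.45, and *Il1b*, 1.23) and 2 were lower (*Ccl4*, -2.0, and the cyclooxygenase gene *Ptgs2*, -1.17), with a median of 0.19. *Ccl4* was detected in 13 WT and 6 *Postn*-DTR cells, with 62 of 113 and 28 of 35 UMIs in 1 cell.

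**Figure D4:**
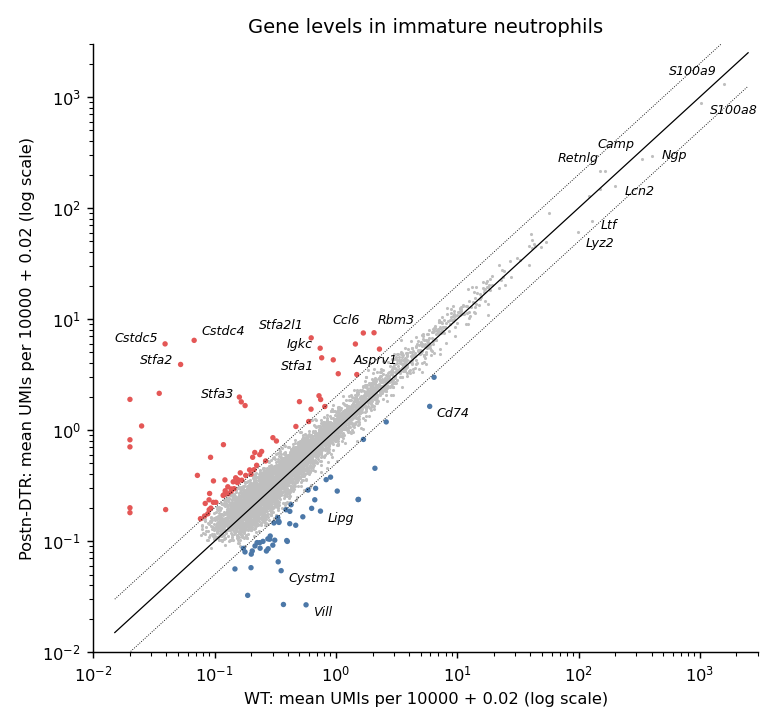
Mean level of each of 5,352 genes in immature neutrophils of WT (x axis) and *Postn*-DTR (y axis), in UMIs per 10,000 plus 0.02 on log axes. Each point is 1 gene, the solid line marks equal levels, the dotted lines 2-fold, and colored points lie past 2-fold. 72 genes were 2-fold or more higher in *Postn*-DTR, among them stefin genes, and 51 were lower.

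Among genes detected in at least 10% of cells of the higher library with at most 25% of its UMIs in 1 cell, the 5 highest ratios belonged to the stefin A cluster on mouse chromosome 16, which spanned 299 kb (chr16:36156811-36455392, mm10) and encodes small cytosolic inhibitors of cysteine proteases such as cathepsins. *Stfa2l1*, which was expressed in the most cells, had 103 UMIs in 20 WT cells and 1,890 UMIs in 213 *Postn*-DTR cells (log2 ratio of levels, 3.44; interval of the UMI ratio, 3.74-4.33). *Cstdc5* had 3 UMIs in 3 cells and 2,520 UMIs in 104 cells (7.26; 7.99-11.82). *Cstdc4* had 11 and 1,539 UMIs (6.57; 6.11-7.96), and *Stfa2* had 4 and 1,034 (6.22; 6.48-9.72). *Stfa3* had 20 and 650 UMIs (3.44), and *Stfa1* had 138 and 2,045 (2.55). All 6 genes of this cluster that could be compared were therefore at least 2-fold higher in *Postn*-DTR, against 1.35% of all genes. The cluster was drawn up after these values were seen, and its count is a description. Cells with at least 3 different stefin genes numbered 1 in WT and 113 in *Postn*-DTR. These genes are related copies, and how the counting divided reads among them was not tested, so the sum over the cluster is given next to the single genes.

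The stefin promoters are shown because genes that stood together at the head of the list shared sequence at their starts. The 100 bases before each start were taken from RefSeq (GRCm38.p6), 5′ to 3′ on the strand of the gene. They lie at chr16:36156711-36156810 (plus) for *Stfa2l1*, chr16:36184112-36184211 (plus) for *Cstdc4*, chr16:36277048-36277147 (plus) for *Stfa1*, chr16:36367571-36367670 (minus) for *Cstdc5*, chr16:36408364-36408463 (minus) for *Stfa2*, and chr16:36455393-36455492 (minus) for *Stfa3*. Capitals mark the 12-base run that all 6 contained.
Stfa2l1: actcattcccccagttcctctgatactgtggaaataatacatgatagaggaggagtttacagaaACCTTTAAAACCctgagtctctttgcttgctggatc
Cstdc4: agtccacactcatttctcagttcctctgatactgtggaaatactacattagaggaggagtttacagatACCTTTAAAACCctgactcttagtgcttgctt
Stfa1: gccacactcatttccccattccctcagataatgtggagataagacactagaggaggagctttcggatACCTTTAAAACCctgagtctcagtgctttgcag
Cstdc5: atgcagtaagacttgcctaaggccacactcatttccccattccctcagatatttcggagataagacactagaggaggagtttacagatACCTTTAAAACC
Stfa2: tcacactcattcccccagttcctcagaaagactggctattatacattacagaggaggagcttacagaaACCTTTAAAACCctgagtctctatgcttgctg
Stfa3: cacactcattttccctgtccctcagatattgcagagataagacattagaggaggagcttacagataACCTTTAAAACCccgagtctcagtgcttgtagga
The run began 12-36 bases before the start and was found in 10 of 32,851 windows of 250 bases, 9 of them in this cluster. Over 250 bases the 6 promoters were 65.1-89.4% identical in 15 pairs (median, 72.9%). The stefin genes are copies of each other.

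Summed over the cluster, the stefin level averaged 1.59 UMIs per 10,000 over WT cells and 29.4 over *Postn*-DTR cells, 18.5-fold higher. Without the 10 cells of highest level in *Postn*-DTR it was 13.7-fold higher. The median cell had 0 in WT and 4.26 in *Postn*-DTR, the upper 10% of cells lay above 1.58 and 83.7, and the highest cells had 51.7 and 589. A stefin UMI was present in 43 of 235 WT cells (18.3%) and 290 of 423 *Postn*-DTR cells (68.6%), and WT cells were the deeper ones. After thinning to 1,000 UMIs, 14 of 234 WT cells (5.98%; 3.31-9.83%) and 204 of 417 *Postn*-DTR cells (48.9%; 44.0-53.8%) had one. Outside the neutrophil lineage the shares were 0.0857% and 0.567%, far below the members of either library.

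The stefin difference was present at each granule sum. Among cells with a sum of 600 or more, 1.85% of WT and 38.9% of *Postn*-DTR cells had a stefin UMI after thinning. The shares were 4.76% and 46.5% at sums of 200-600, and 23.3% and 71.1% at sums of 50-200. In precursors they were 0 of 98 cells, which allows a share of up to 3.69%, and 4.74%, and in mature neutrophils 28.3% and 68.9%. In both libraries the share was therefore higher at lower granule sums. Within *Postn*-DTR, 165 cells had a stefin level of 10 or more. Relative to the other 258 members, they had more *Retnlg* (336 against 136), more *Ccl6* (12.9 against 4.02), and less *Camp* (201 against 326). Their median granule sum was 388 against 766.

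**Figure D5:**
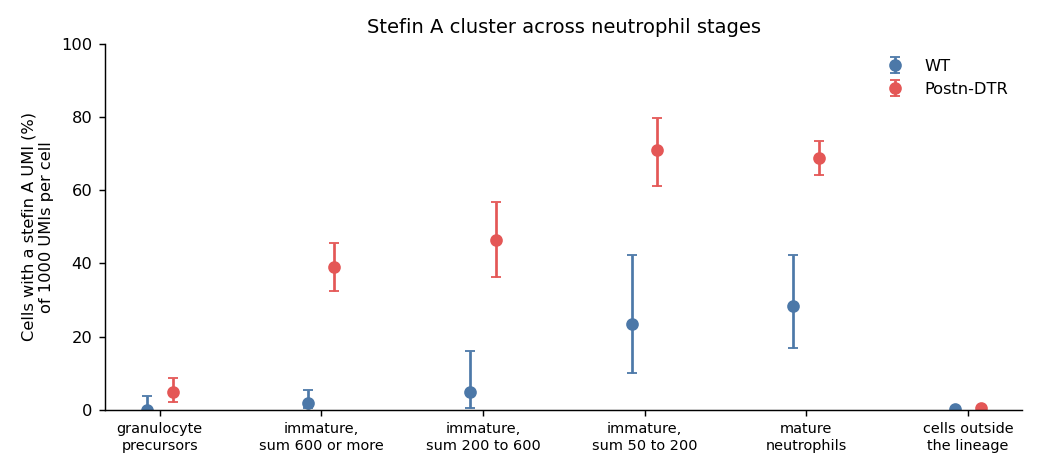
Share of cells with at least 1 UMI of the stefin A cluster after thinning to 1,000 UMIs, by stage and granule sum, in WT and *Postn*-DTR. Lines are 95% intervals that cover counting error. The share was higher in *Postn*-DTR at each granule sum, with 1.85% and 38.9% at sums of 600 or more and 23.3% and 71.1% at sums of 50-200.

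Several other genes were higher in *Postn*-DTR. *Ccl6*, a chemokine of myeloid cells and a mature neutrophil gene, was at 1.66 and 7.46 UMIs per 10,000 (log2 ratio, 2.16). It was higher at each granule sum, with log2 ratios of 1.73 at 50-200, 0.55 at 200-600, and 1.26 at 600 or more. *Asprv1*, a retroviral-like aspartic protease, was at 1.43 and 5.94 (2.04), and *Rbm3*, a cold-inducible RNA-binding protein, at 2.04 and 7.50 (1.87). Both were at least 2-fold higher at each granule sum, with ratios of 1.27-2.01 for *Asprv1* and 1.28-2.23 for *Rbm3*. In contrast, *Il1b*, which had a ratio of 1.23 over all members, had 1.03 at sums of 50-200, 0.79 at 200-600, and -0.34 at 600 or more, so its direction turned in the cells richest in granule transcripts. *Ifitm1* had 1.22, 0.91, and -0.56. Of 18 mature neutrophil genes, 4 were 2-fold higher and 1 lower (median, 0.22), against 1.35% and 0.953% of all genes. Within the granule sums the median of this list was 0.01 at 50-200, -0.05 at 200-600, and -0.04 at 600 or more, with 3 of 16, 0 of 16, and 2 of 15 genes 2-fold higher. Over all genes at these sums, 33 of 801, 44 of 1,027, and 108 of 4,574 were 2-fold higher, with medians of 0.03, 0.11, and 0.18.

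Several genes that respond to glucocorticoids were higher. Of 9 genes of this list that could be compared, 4 were at least 2-fold higher, against 1.35% of all genes, and 0 were lower (median, 0.84, against 0.12 over all genes). At granule sums of 600 or more, 0 of 8 were 2-fold higher (median, 0.34, against 0.18 over all genes), and after thinning to 1,000 UMIs 0 of the 2 genes that could be compared. *Fkbp5*, a co-chaperone of the glucocorticoid receptor, had a log2 ratio of 1.40, *Tsc22d3*, which encodes the leucine zipper GILZ, 1.31, and the clock gene *Per1* 1.21. *Fkbp5* and *Tsc22d3* were above 0.7 at each granule sum, whereas *Per1* was at 0.14 at sums of 600 or more. The metallothionein gene *Mt1* had 2.65, but 172 of its 359 UMIs in the *Postn*-DTR members lay in 1 cell. *Sgk1*, another gene of the list, was at -0.14. Cells outside the lineage also had more *Fkbp5* in *Postn*-DTR, 0.18 and 0.68 UMIs per 10,000, and more *Mt1*, 0.75 and 3.50.

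Genes of sterol metabolism were lower in *Postn*-DTR. The isomerase gene *Idi1* had a log2 ratio of -1.62 and the sterol reductase gene *Hsd17b7* of -1.71. A list of 21 genes of this pathway was drawn up after these values were seen. All 11 of its genes that could be compared were below 0, with 7 at least 2-fold lower, against 0.953% of all genes, and the median was -1.21, against 0.12. The choice of this list used these values, and its counts are a description. *Srebf2*, a transcription factor that activates this pathway, had levels of 0.66 and 0.28 UMIs per 10,000 (-1.19), and *Msmo1*, which oxidizes methylsterols, of 0.65 and 0.22 (-1.51). *Pmvk*, a kinase of the mevalonate pathway, had the ratio nearest to 0 (-0.30). At granule sums of 600 or more, the median over the 9 genes that could be compared was -0.99. In mature neutrophils, the log2 ratio was -1.65 for *Srebf2*, -1.18 for *Msmo1*, -0.85 for *Idi1*, and -0.57 for *Pmvk*. *Hsd17b7* was at 0.30 there, with 0 UMIs in WT and 2 in *Postn*-DTR, and *Sc5d*, another gene of the list, at 0.16. Counts in mature neutrophils were low, with 4 and 4 UMIs of *Idi1* and 11 and 29 of *Pmvk*. The intervals of the log2 UMI ratio were -4.40 to 0.45 for *Idi1* and -1.62 to 0.57 for *Pmvk*.

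*Vill*, a relative of the actin-binding protein villin, had the lowest ratio. It had 157 UMIs in 93 of 235 WT cells and 4 UMIs in 4 of 423 *Postn*-DTR cells (log2 ratio of levels, -4.41; interval of the UMI ratio, -7.36 to -4.08). Its ratio was -4.70, -3.86, and -4.53 at the 3 granule sums. *Vill* was also lower in *Postn*-DTR precursors, with 66 UMIs in 36.7% of WT cells and 8 UMIs in 2.56% of *Postn*-DTR cells (-2.24). In mature neutrophils, 7 of 54 and 16 of 428 cells had a *Vill* UMI, and outside the lineage 3.03% and 1.90% of cells. *Lipg*, endothelial lipase, had 275 and 77 UMIs (-2.0) and was lower at each granule sum, whereas *Cystm1*, a small membrane protein, had 113 and 21 (-2.71). *Fabp5*, a fatty acid binding protein, had -1.68. *Basp1*, a membrane-associated signaling protein, had -1.75, and the integrin subunit gene *Itgb7* had -1.79.

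Markers of other cell types were present at low levels and moved with some of these results. Plasma cell genes summed to 3.01 UMIs per 10,000 in the WT members and to 12.9 in those of *Postn*-DTR, and outside the lineage to 121 and 564. Of 5 plasma cell genes compared, 4 were at least 2-fold higher in *Postn*-DTR members, against 1.35% of all genes (median, 2.18, against 0.12). Among them was *Igkc*, the kappa light chain, with 144 and 1,916 UMIs. B cell markers summed to 0.661 and 0.365 in members, T cell markers to 0.836 and 0.312, and dendritic cell markers to 0.205 and 0.0333. *Cd74*, the invariant chain of class II molecules, had 3,851 and 862 UMIs (-1.86), of which 817 lay in 1 WT cell. Outside the lineage its levels were 113 and 68.3. Monocyte markers summed to 14.0 and 12.3, most of it from *Ly6c2* (13.7 and 11.6), a gene that is not restricted to monocytes. Mast cell, eosinophil, NK cell, and stromal markers each summed to less than 1. All erythroid UMIs of the *Postn*-DTR members lay in 1 cell. *Saa3*, an acute-phase protein, had 1 and 621 UMIs (interval of the log2 UMI ratio, 6.62-14.41), of which 404 lay in 1 cell, and was at 0.28 and 8.03 outside the lineage. The part of RNA from other cells in these results was not tested. The class II gene *H2-Aa*, chosen after its values were seen, had 1,374 UMIs in 23 WT cells and 233 UMIs in 11 *Postn*-DTR cells.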

How the data were processed

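Omental cells of WT and *Postn*-DTR mice (3 pooled mice per group, 5 d after DT) were profiled on the 10x Genomics Chromium platform. The labels name a 5′ version 2 kit and the study's methods a 3′ version 2 kit, so gene levels were not compared with transcript ends. The submitters' processing notes name Cell Ranger 6.0.0 and mm10. The authors deposited 1 matrix per library with values that equal the natural log of 1 plus the UMIs per 10,000 of the cell. From the step of 1 UMI, UMIs were recovered, and 99.96% (WT) and 99.91% (*Postn*-DTR) of the deposited values were whole within 0.1 UMI. Of 1,078 genes without a symbol, 1,060 were named from GENCODE M21 (GRCm38).

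Members had 200-7,500 genes, 50 or more UMIs per 10,000 of *Ltf*, *Camp*, and *Ngp*, less than 20 of *Elane*, *Mpo*, and *Prtn3*, and a *Jchain* value below 3.93. Precursors had 20 or more of the latter 3 genes. Mature neutrophils were neither, had 100 or more UMIs per 10,000 of *S100a8* and *S100a9*, and had a UMI of *Csf3r*, *Cxcr2*, or *Retnlg*. Levels are means over cells of UMIs per 10,000, and ratios are log2 of levels with 0.02 added. Intervals at 95% are exact Clopper-Pearson for shares, Katz for ratios of shares, and conditional binomial for UMI ratios. They cover counting error only. With 1 library per group no test was run. Genes with 100 or more UMIs in the members were compared, without V, D, and J segments. Genes were named when they were on one of the gene lists, among the 20 of highest level, among the 12 of highest and of lowest ratio (detected in 10% or more of cells of the higher library, with at most 25% of its UMIs in 1 cell), or among the 10 that most separated immature from mature cells. Members and lists were chosen with earlier results of these data known. Scrublet (scanpy 1.11.5) marked 97 of 8,680 WT cells and 110 of 5,734 *Postn*-DTR cells as doublets, 1 and 9 of them members, which were removed in an alternative only. Shares of cells with a UMI were compared after thinning to 1,000 UMIs, which left out 1 WT and 6 *Postn*-DTR members. Alternatives changed gene and granule limits, scaling, doublets, thinning, and denominators. The code was tested on simulated data. Python 3.11.15, numpy 2.4.6, scipy 1.17.1, pandas 2.3.3, and Biopython 1.88 were used. Promoter windows came from RefSeq (GRCm38.p6), and all 10 genes shown were matched. Some genes are not reported here and were left out of the list of sterol genes.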

Additional observations from a re-analysis of the deposited data

How the results depend on the processing

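No paired analysis was possible because each group was 1 library. The share of immature neutrophils, 2.72 times higher in *Postn*-DTR among all cells, was 3.95 times higher without plasma cells in the denominator and reversed to a ratio of 0.666 with the neutrophil lineage as denominator. Other limits of the gates gave 2.39-2.86. The ratio within the lineage, 0.666, moved to 0.582 when a granule sum of 200 or more was required. The number of genes at least 2-fold higher (72) and lower (51) depended on the limit for counts, with 132 and 95 at 50 or more UMIs and 38 and 18 at 200 or more. After thinning to 1,000 UMIs, 20 were higher and 1 lower of 718 genes. Fewer cells and genes enter these subsets: 33 were higher and 27 lower at granule sums of 50-200, 44 and 24 at 200-600, and 108 and 29 at 600 or more. In cycling members 52 were higher and 20 lower, and in the others 52 and 33. The log2 ratio of *Il1b* was 1.23 in all members and reversed to -0.34 at sums of 600 or more. The cause of these shifts was not tested. Of 46 named genes past 2-fold, 44 remained so without the cell with most UMIs and 44 with summed UMIs. All 43 that could be compared without doublets, and all 14 after thinning, remained so, but 26 of 34 at granule sums of 600 or more.

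The main limit is the design. Each genotype was 1 library of pooled mice, so genotype, library, and depth cannot be told apart, and the spread between mice is not known. Members were deeper in WT (median UMIs, 11,523 against 6,401).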
